A study of Rattus norvegicus with 2 samples.

Results

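Genes of the TGF-β, BMP and Wnt pathways were examined in dorsal root ganglia (DRGs), which hold the cell bodies of sensory neurons (SNs), on the tumor side and on the control side of rats bearing a tumor in 1 tibia. Members were the genes whose symbol names a TGF-β, BMP, GDF or activin ligand, a receptor of these ligands, a SMAD, a Wnt, a Frizzled receptor, Lrp5, Lrp6, an SFRP or a DKK. Of the 14217 genes with a probe set of their own on the array, 67 were found by this naming rule, through 108 probe sets. On this array 1 transcript is read by several short probes that are combined into a probe set with 1 signal. Each gene is given by whichever of its probe sets was brightest on average (mean log2 signal of the 2 arrays). On the tumor side, 100000 cells of IP-B12, a rat pulmonary carcinoma line that grows osteolytically, had been placed in the marrow of the right tibia of 4-week-old female Sprague-Dawley rats, and the DRGs were taken 14 days later. On the control side, the DRGs came from the left side of tumor-bearing rats, so both groups share the tumor in the body. A sham injection of the left tibia is not mentioned. Each side is 1 array (n = 1), and the number of rats behind the RNA of an array was not found in the labels or the methods. There is therefore no replicate error and no test, and every difference describes these 2 arrays.

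TGF-β superfamily ligands bind pairs of type I and type II receptor kinases, which phosphorylate receptor SMADs. TGF-βs and activins act through SMAD2 and SMAD3, BMPs through SMAD1, SMAD5 and SMAD9, and both kinds of SMAD enter the nucleus with SMAD4, while SMAD6 and SMAD7 oppose them. Wnts bind Frizzled receptors together with LRP5 or LRP6 and stabilise β-catenin, and SFRPs, which bind Wnts, and most DKKs, which bind LRP5 and LRP6, act as inhibitors outside the cell. In bone these pathways steer the formation and resorption of matrix, and in the adult DRGs of rodents BMP signaling through SMAD1 is known for its part in axon growth.

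Most members that could be measured well had nearly the same signal on both sides. A gene was taken as above the signal rule if on at least 1 array its signal was no lower than that array's median (72.7 on the tumor-side and 69.0 on the control-side array). Of the 67 members, 37 (55.2%) were above it, against 68.2% of all 14217 genes. None of the 37 was higher or lower by a fold of 2. Of all 9695 genes above the rule, a fold of 2 was reached by 13 that were higher (0.134%) and 18 that were lower on the tumor side (0.186%), so a count of 0 among 37 is what this background gives too. At a fold of 1.5, 1 member was higher (2.7% of the 37, against 1.19% of all genes above the rule) and 1 was lower (2.7%, against 0.743%). The technical spread among the probe sets of a gene, an SD of the log2 ratio of 0.22 for genes with a mean signal under percentile 75 and of 0.14 for brighter genes, is the only measure of error in these data. It covers differences between probe sets read on the same 2 arrays, and holds no variation between arrays or animals.

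The higher member was Fzd2, a Frizzled receptor, with a signal of 96.8 on the tumor side and 52.3 on the control side, a ratio of 1.85 (log2 ratio 0.89). The lower member was Wnt7a, a Wnt ligand, with 55.0 on the tumor side and 83.1 on the control side, 1.51 times lower in tumor-side ganglia (log2 ratio -0.60). Each met the signal rule only through its brighter side, so the rule itself favours their difference. Among the 34 members that reached the median on both arrays none differed by a fold of 1.5, where 0.645% of such genes were higher and 0.301% lower. In the range of mean signals under percentile 75, where both lie, 2.51% of the genes passing the rule reached a fold of 1.5 upward and 1.55% did so downward. Fzd2 has no second probe set to set beside its value. The second probe set of Wnt7a had 1.45 on the tumor side and 3.81 on the control side, not above the trp control probe sets, which target a bacterial transcript and reached 4.63 on the tumor-side and 5.39 on the control-side array, so its direction carries no weight.

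**Figure D1:**
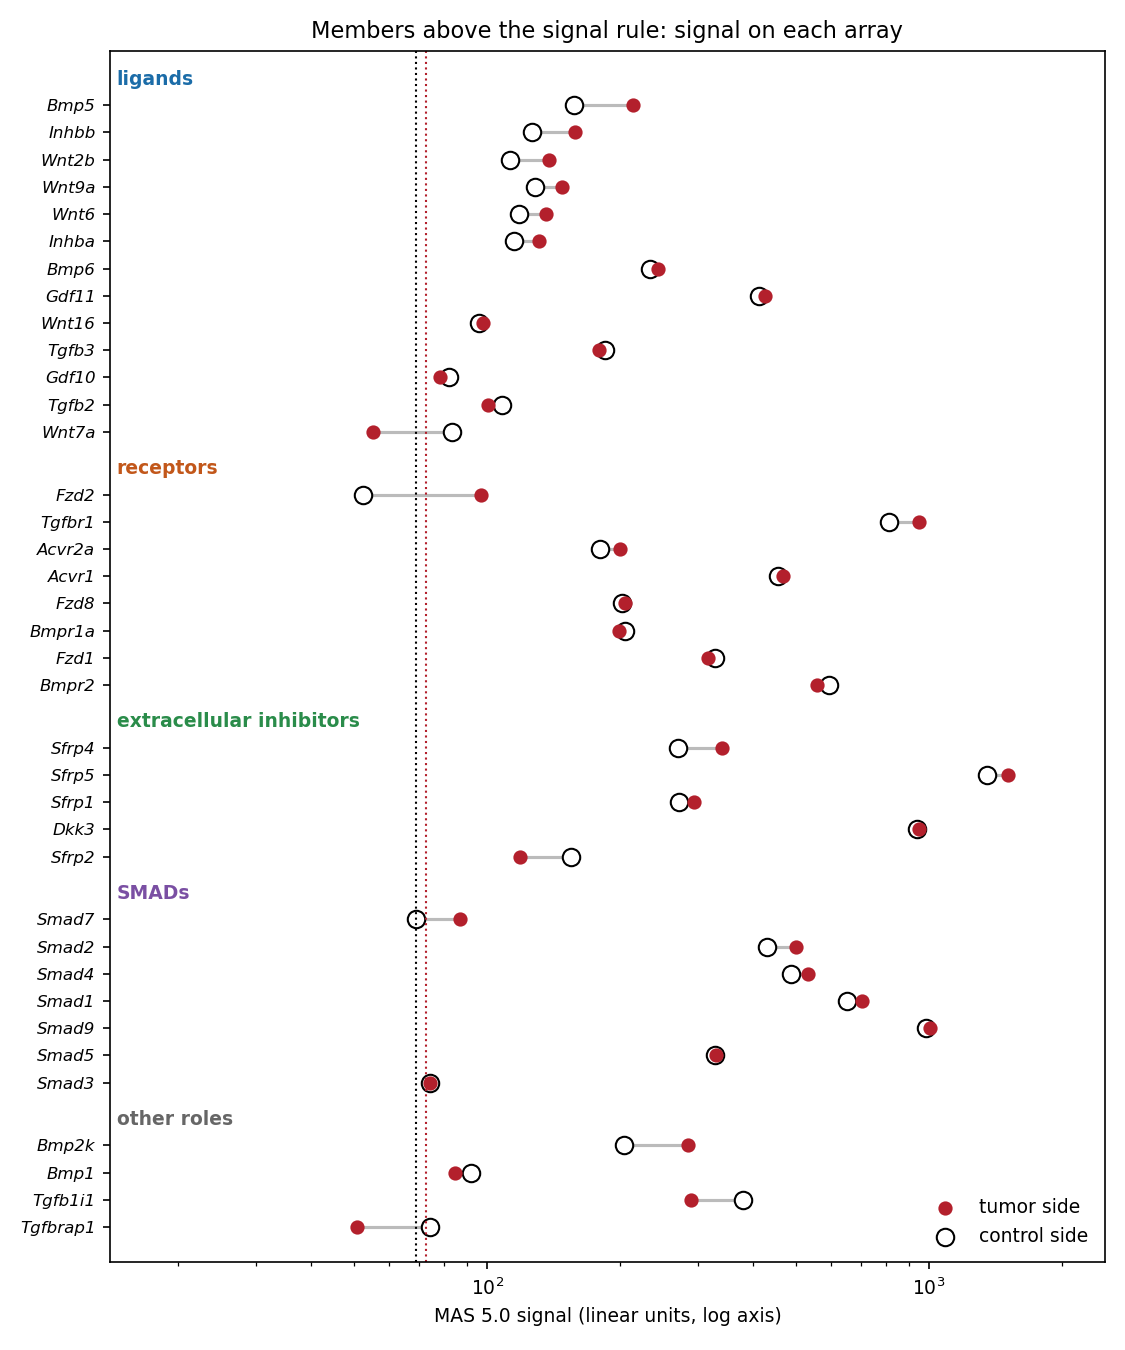
MAS 5.0 signal on a log axis of the 37 members above the signal rule, 1 row per gene grouped by role, with the tumor-side array as a filled and the control-side array as an open circle (n = 1 array each). Dotted lines mark the array medians (72.7 on the tumor side in red, 69.0 on the control side in black), and Fzd2 (96.8 and 52.3) and Wnt7a (55.0 and 83.1) are the rows whose circles lie farthest apart.

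The ganglia were whole, and fewer cells of a type and less RNA per cell cannot be told apart in them. All 10 measured markers of SNs, such as Prph, Calca and Trpv1, were above the rule, as the labelled tissue calls for, with a median log2 ratio of -0.07. Of 6 markers of epithelial carcinoma cells, 0 were above the rule. Markers of other tissues differed between the sides in the same comparison as Fzd2 and Wnt7a. Of 8 measured bone and cartilage markers, 6 were above the rule and 5 of these were higher by a fold of 1.5 or more. The summed signal of the 8 was 2163 on the tumor side and 1144 on the control side. Dmp1 and Acan, below the rule, went the other way. Dmp1 had 37.6 on the tumor side and 52.3 on the control side, and Acan had 11.8 and 23.8 in the same order. All 7 measured skeletal muscle markers were at least 2 times lower, with a sum of 354 on the tumor side and 1159 on the control side, and 6 of them passed the rule only because of the control side. Of 4 granulocyte markers, 3 were above the rule and at least 1.5 times lower, with a sum over the 4 of 559 on the tumor side and 1164 on the control side. Camp, below the rule, went the other way, with 30.9 on the tumor side and 23.6 on the control side. The 6 fibroblast markers had a median log2 ratio of 0.22 and the 4 meningeal markers above the rule one of 0.26, against 0.08 for all genes above the rule. Among markers above the rule, the median was 0.19 for 2 of endothelium and 0.18 for 4 of macrophages. It was 0.10 for 3 of satellite glia and 0.02 for 5 of Schwann cells. No marker of these lists was as low as the trp control probe sets, and their part in the values of the members was not tested.

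Among the ligands of the TGF-β superfamily, 8 of 18 were above the rule, with a median log2 ratio of 0.05 and values from -0.11 to 0.44. Bmp5, a BMP of cartilage and bone, had the largest ratio, with 213 on the tumor side and 157 on the control side (log2 ratio 0.44). Its second probe set, below the rule, had 31.3 and 24.5 in the same order (log2 ratio 0.36). The activin subunits Inhbb and Inhba followed. Inhbb had 158 on the tumor side and 126 on the control side (log2 ratio 0.32), and Inhba had 131 on the tumor side and 115 on the control side (log2 ratio 0.19). A second probe set of Inhba, below the rule, went the other way, with 34.2 on the tumor side and 57.3 on the control side. Bmp6, a BMP that acts through SMAD1, SMAD5 and SMAD9, had 244 on the tumor side and 233 on the control side, and Gdf11, a relative of myostatin, had 425 on the tumor side and 413 on the control side. The values of the other three lay slightly lower on the tumor side. Tgfb2 had 100.4 on the tumor side and 108 on the control side (log2 ratio -0.11). Tgfb3 had 179 on the tumor side and 185 on the control side (log2 ratio -0.04). Gdf10 had 78.3 on the tumor side and 82.0 on the control side (log2 ratio -0.07). The signal of Tgfb1, 3.45 on the tumor side and 0.85 on the control side, did not exceed the trp control probe sets, so no ratio is given for it.

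Of 13 Wnt ligands, 5 were above the rule. A log2 ratio over 0 was found in 4 of these 5, and in 6871 of all 9695 genes above the rule. Set against the median gene, 3 of the 5 lay above it and 2 below it. Wnt2b, a Wnt of the canonical pathway, had 138 on the tumor side and 112 on the control side (log2 ratio 0.30). Wnt9a, a Wnt of developing joints in mice, had 148 on the tumor side and 128 on the control side (log2 ratio 0.21). Wnt6 had 136 on the tumor side and 118 on the control side (log2 ratio 0.20). Wnt16, a Wnt that protects cortical bone in mice, had 97.6 on the tumor side and 95.7 on the control side (log2 ratio 0.03). Wnt7a was thus the ligand above the rule with the lowest ratio, and among the 4 others the log2 ratios lay between 0.03 and 0.30.

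Apart from Fzd2, the receptors above the rule had log2 ratios from -0.10 to 0.23. Of 9 receptors of the TGF-β superfamily, 5 were above the rule. Tgfbr1, the type I receptor of TGF-βs, had 948 on the tumor side and 811 on the control side (log2 ratio 0.23). Acvr2a, a type II receptor of activins, had 199 on the tumor side and 180 on the control side (log2 ratio 0.15). Acvr1, a type I receptor of BMPs, had 466 on the tumor side and 455 on the control side (log2 ratio 0.04). The BMP receptors Bmpr1a and Bmpr2 were marginally lower. Bmpr1a had 199 on the tumor side and 206 on the control side (log2 ratio -0.05), and Bmpr2 had 557 on the tumor side and 595 on the control side (log2 ratio -0.10). A second probe set of Bmpr2, below the rule, went the other way, with 16.9 on the tumor side and 12.1 on the control side (log2 ratio 0.48). Beside Fzd2, the Frizzled receptors above the rule were Fzd1, with 316 on the tumor side and 328 on the control side (log2 ratio -0.05), and Fzd8, with 205 on the tumor side and 202 on the control side (log2 ratio 0.02). Of the LRP co-receptors, Lrp6 lay below the rule with 57.9 on the tumor side and 54.7 on the control side. Lrp5 had 3.76 on the tumor side and 15.0 on the control side, and the tumor-side signal did not exceed the trp control probe sets.

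The extracellular inhibitors of Wnts were measured well as a group, with 5 of 6 above the rule, and lay on both sides of the median gene. Sfrp4, an SFRP of bone and connective tissue, had 339.8 on the tumor side and 270.1 on the control side (log2 ratio 0.33). A second probe set of Sfrp4, below the rule, had 21.27 on the tumor side and 21.25 on the control side (log2 ratio 0.0013). Sfrp5 had 1509.9 on the tumor side and 1351 on the control side (log2 ratio 0.16). Sfrp1 had 295 on the tumor side and 272 on the control side (log2 ratio 0.11). Sfrp2 went the other way, with 119 on the tumor side and 155 on the control side (log2 ratio -0.39), although its second probe set, below the rule, had 62.5 on the tumor side and 57.6 on the control side. Dkk3, a divergent DKK that does not act like the others on LRP5 and LRP6, had 950.3 on the tumor side and 942 on the control side (log2 ratio 0.01). Its second probe set, dimmer but also above the rule, had 100.1 on the tumor side and 76.4 on the control side (log2 ratio 0.39).

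SMADs carry both branches into the nucleus, and 7 of 8 were above the rule with log2 ratios from -0.0023 to 0.33. Smad7, the inhibitory SMAD that TGF-β itself induces, had the largest, with 86.9 on the tumor side and 69.1 on the control side (log2 ratio 0.33). The further probe sets of Smad7, both below the rule, had log2 ratios of -0.01 and -0.35. Among the receptor SMADs, Smad2, of the TGF-β and activin branch, had 501 on the tumor side and 430.1 on the control side (log2 ratio 0.22), and Smad3, of the same branch, had 74.2 on the tumor side and 74.3 on the control side. Of the BMP branch, Smad1 had 704 on the tumor side and 652 on the control side (log2 ratio 0.11). Smad5 had 329 on the tumor side and 327 on the control side (log2 ratio 0.01). Smad9 had 1007 on the tumor side and 986 on the control side (log2 ratio 0.03). Smad4, the partner of both branches, had 533 on the tumor side and 487 on the control side (log2 ratio 0.13).

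The remaining 4 members match the naming rule but are none of these ligands, receptors, inhibitors or SMADs, and their log2 ratios were spread more widely than those of the SMADs. Bmp2k, a protein kinase named for its induction by BMP2 in mice, had 285 on the tumor side and 204 on the control side (log2 ratio 0.48), and 143 and 118 in the same order on its second probe set (log2 ratio 0.28). Tgfb1i1, an adaptor of focal adhesions, had 289.5 on the tumor side and 379 on the control side (log2 ratio -0.39). Tgfbrap1, a protein that binds TGF-β receptors, had 50.8 on the tumor side and 74.2 on the control side (log2 ratio -0.55) and passed the rule only because of the control side. Bmp1, a procollagen protease that also cleaves the BMP antagonist chordin, had 84.7 on the tumor side and 91.7 on the control side (log2 ratio -0.11).

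Set side by side and pooled over both families, the medians of ligands, receptors, inhibitors and SMADs differed little. The inhibitors are all of the Wnt family and the SMADs all of the TGF-β superfamily. The median log2 ratio above the rule was 0.06 for 13 ligands, 0.03 for 8 receptors, 0.11 for 5 extracellular inhibitors and 0.11 for 7 SMADs. It was 0.04 for all 37 members, against 0.08 for all 9695 genes above the rule. Within the Wnt family the medians lay further apart, at 0.20 for 5 ligands, 0.02 for 3 receptors and 0.11 for 5 inhibitors. Within the TGF-β superfamily they were 0.05 for 8 ligands, 0.04 for 5 receptors and 0.11 for 7 SMADs. The quartiles ran from -0.04 to 0.21 for ligands, from -0.05 to 0.17 for receptors, from 0.01 to 0.16 for inhibitors and from 0.02 to 0.17 for SMADs. These ranges overlap, and that of all genes ran from -0.02 to 0.18. Over both families, ligands minus receptors came to 0.04 and receptors minus inhibitors to -0.09. The median of ligands depends on which genes are kept, since over the 12 ligands that reached the median on both arrays, without Wnt7a, it was 0.13, above the median gene and not below it. Ligands minus receptors was then 0.11, and 0.24 with no signal filter. Of the 37 members, 17 lay above the median gene and 20 below it. The 4 members of other roles, with a median of -0.25, were the group outside the quartiles of all genes, and they are too few and too unlike in function to be read as a group.

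**Figure D2:**
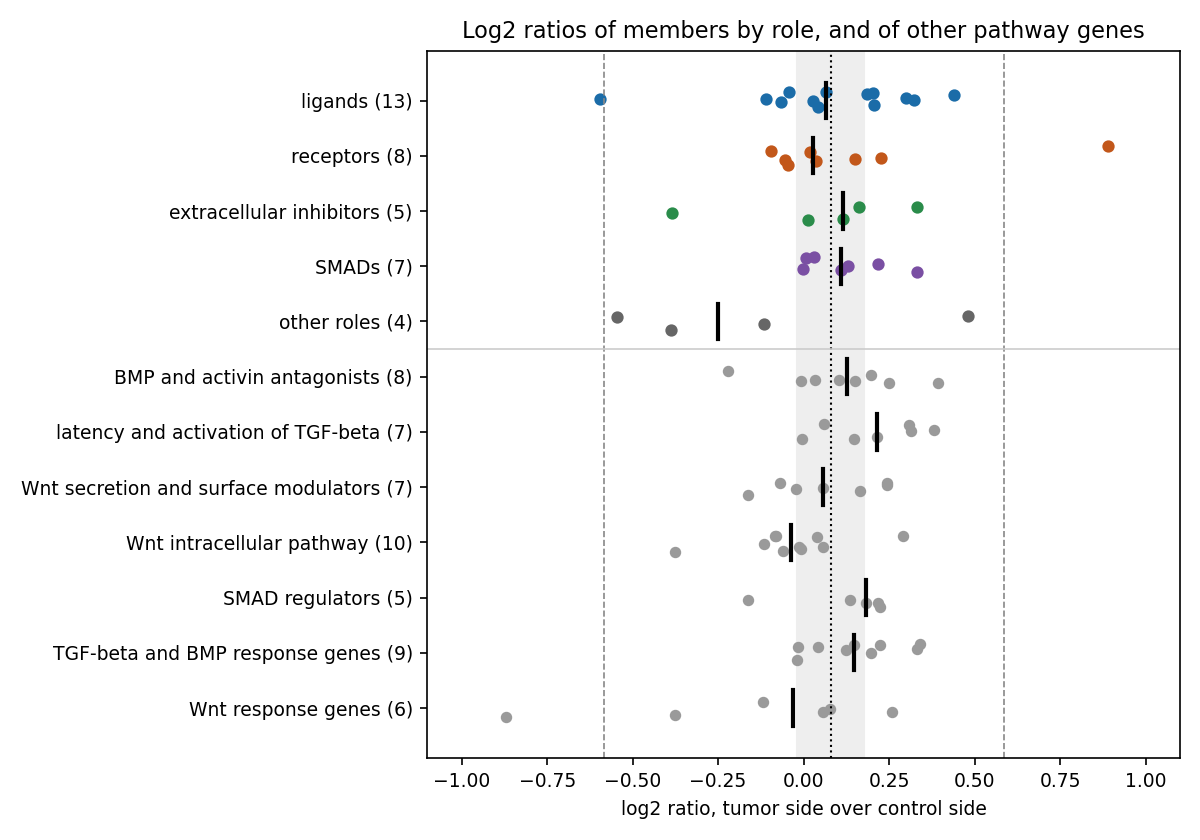
Tumor-side over control-side log2 ratio, 1 point per gene above the signal rule in each row, for members by role (coloured) and for lists of pathway genes (grey), with the number of genes in brackets. Genes on several lists have a point in each, and the member Smad7 also appears in grey among the TGF-β and BMP response genes. Black bars are medians, the dotted line is the median of all genes (0.08) with the range between its quartiles shaded (-0.02 to 0.18), and past the dashed lines, drawn at folds of 1.5, lie Fzd2 (0.89), Wnt7a (-0.60) and Nkd1 (-0.87).

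Members with several probe sets above the rule show how far such small ratios can be trusted. There were 8 of them, and the distance between their highest and lowest log2 ratio was from 0.10 for Smad4 to 0.78 for Smad5. In Smad5 the brightest probe set gave 0.01 and the further ones 0.24 and -0.54, the last with 57.1 on the tumor side and 83.2 on the control side. In Acvr1 the probe sets gave 0.04, -0.14 and 0.27, and in Bmp6 they gave 0.06 and 0.46. The probe sets of Smad1 also differed in sign, with 0.11 and -0.12. Both probe sets of Bmp2k were higher on the tumor side and both of Tgfb2 lower. The distance between the probe sets of Bmp6, 0.40, is wider than the distance from the median gene of 31 of the 37 members above the rule. Bmp6 was chosen after its values were seen and is among the wider of the 8. The distance was narrower in Dkk3 (0.38), Smad1 (0.23), Bmp2k (0.21), Tgfb2 (0.15) and Smad4, and wider in Acvr1 and Smad5.

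**Figure D3:**
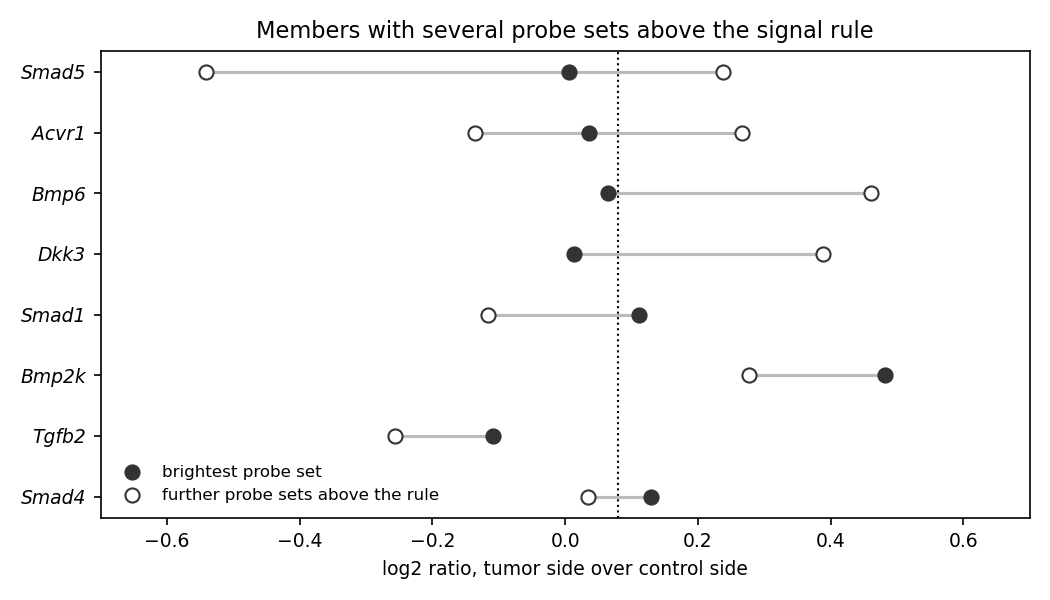
Tumor-side over control-side log2 ratio of each probe set above the signal rule in the 8 members that have several, 1 row per gene, sorted by the distance between the lowest and the highest. Filled circles are the brightest probe set of a gene, open circles its further ones, and the dotted line is the median of all genes (0.08). The probe sets of Smad5 reach from -0.54 to 0.24.

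The 30 members below the rule include 8 of 13 Wnts and 6 of 8 BMPs. Of these, 11 did not exceed the trp control probe sets on at least 1 array, and no ratios are given for them. They are Tgfb1, Bmp8a, Bmp15, Gdf6, Gdf15, Acvr1c, Lrp5, Wnt5b, Wnt8b, Wnt10a and Wnt11. The other 19 had a median log2 ratio of 0.20, and no median over all genes below the rule was taken to set beside it. Fzd5, a Frizzled receptor, was the only one of the 19 past a fold of 2, with 6.07 on the tumor side and 19.5 on the control side (log2 ratio -1.68), and its tumor-side signal was barely above the trp control probe sets. Past a fold of 1.5 were Bmp4, a ligand of bone and mesenchyme, with 58.6 on the tumor side and 37.2 on the control side (log2 ratio 0.65), and the Wnt inhibitor Dkk2, with 15.8 on the tumor side and 10.1 on the control side (log2 ratio 0.64). The share of all genes below the rule past these folds was not counted, so the ratios of Fzd5, Bmp4 and Dkk2 do not set them apart. Smad6, the inhibitory SMAD of the BMP branch, had 58.0 on the tumor side and 43.0 on the control side (log2 ratio 0.43), but its 4 probe sets, all below the rule, ranged from 0.43 to -1.66. Counted without the signal rule, 2 of 67 members (2.99%) were higher and 5 (7.46%) lower by a fold of 2 or more, against 4.31% and 3.71% of all 14217 genes in the same order. Of these 7 members only Fzd5 was brighter than the trp control probe sets on both arrays.

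**Figure D4:**
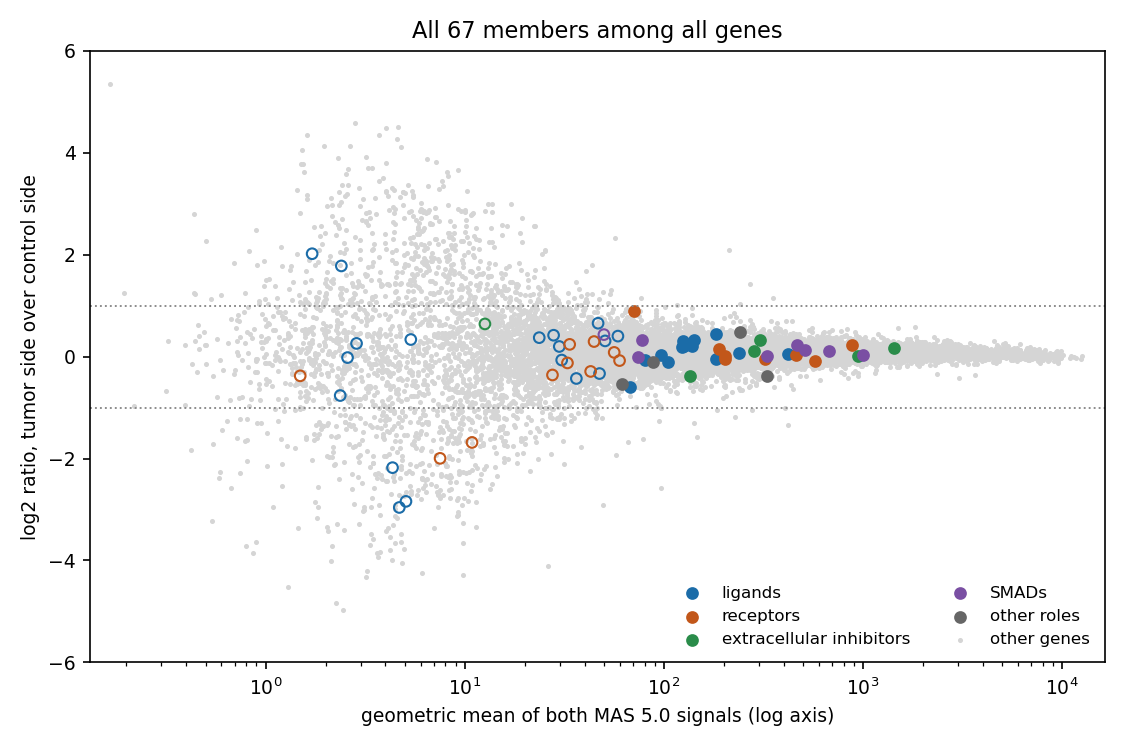
Tumor-side over control-side log2 ratio plotted against mean signal (the geometric mean of the 2 arrays, log axis), with the 67 members coloured by role (filled above the signal rule, open below it) and all other genes in grey, 1 point per gene. No filled circle lies beyond the dotted lines, which stand for folds of 2, the nearest being Fzd2 (0.89), and the ratios of members and of other genes scatter widely at low signal.

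Other genes of the pathways, listed by their function and not by the naming rule, also differed little between the sides. Of 67 such genes measured, 47 were above the rule. Their median log2 ratio was 0.06, where all 9695 genes above the rule had 0.08. The background shares past a fold of 1.5 were 1.19% upward and 0.743% downward. Among the 47 pathway genes, 0 were higher and 1 was lower on the tumor side by that fold. Counts this small do not set these genes apart from the background. The exception was Nkd1, a feedback inhibitor of Wnt signaling that binds Dishevelled, with 67.4 on the tumor side and 123 on the control side, 1.83 times lower on the tumor side (log2 ratio -0.87). It passed the rule only because of the control side. Of the Wnt response genes, 6 of 8 were above the rule, with a median log2 ratio of -0.03. Lef1, a transcription factor that binds β-catenin, had 69.9 on the tumor side and 90.8 on the control side (log2 ratio -0.38), and it too passed only because of the control side. Without Nkd1 and Lef1, the median of the 4 response genes left was 0.07. The cyclin Ccnd1 had 298 on the tumor side and 249 on the control side (log2 ratio 0.26). Axin2, the response gene most used as a readout of β-catenin, lay below the rule with 31.4 on the tumor side and 33.8 on the control side.

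TGF-β and BMP response genes had a median log2 ratio of 0.15 over the 9 above the rule, which include the member Smad7. The lists overlap, since Skil is also among the SMAD regulators and Bambi among the BMP and activin antagonists. Likewise, Lef1 and Lgr5 of the Wnt response genes are each on a further list of Wnt genes. Ccn2, a matrix protein induced by TGF-β, had 720 on the tumor side and 568 on the control side (log2 ratio 0.34). Skil, a repressor of SMADs, had 715 on the tumor side and 612 on the control side (log2 ratio 0.22). The BMP response gene Id1 had 206 on the tumor side and 186 on the control side (log2 ratio 0.15), and Id3 had 394 on the tumor side and 399 on the control side (log2 ratio -0.02). Genes of the latency and activation of TGF-β had a median of 0.22 over 7 genes. Itgav, the integrin chain that can release active TGF-β, had 2604 on the tumor side and 1999 on the control side (log2 ratio 0.38). Itgb6, its partner chain, had 184 on the tumor side and 148 on the control side (log2 ratio 0.32). Eng, a TGF-β co-receptor of endothelium, had 101 on the tumor side and 81.5 on the control side (log2 ratio 0.31).

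Of the BMP and activin antagonists, 8 of 15 were above the rule, with a median log2 ratio of 0.13. Bmper had 247 on the tumor side and 188 on the control side (log2 ratio 0.39). Twsg1 had 1095 on the tumor side and 921 on the control side (log2 ratio 0.25). Fstl3 had 112 on the tumor side and 131 on the control side (log2 ratio -0.22). Modulators of Wnt secretion and of the cell surface had a median log2 ratio of 0.06 over 7 genes. The ligase Znrf3, which removes Frizzled receptors, had 263 on the tumor side and 222 on the control side. The R-spondin receptor Lgr4 had 230 on the tumor side and 194 on the control side, and Porcn, which lipidates Wnts, had 102 on the tumor side and 91.4 on the control side. In the intracellular Wnt pathway 9 of 10 genes above the rule lay below the median gene, with a median of -0.04, and 8 of 9 did so without Lef1, with a median of -0.01. The transcription factor Tcf7l2 was the exception, with 289 on the tumor side and 236 on the control side (log2 ratio 0.29), and the kinase Gsk3b had 333 on the tumor side and 360.4 on the control side (log2 ratio -0.11). All 10 SN markers lay below the median gene as well, and a link with the intracellular Wnt genes was not tested. SMAD regulators had a median of 0.18 over 5 genes, among them the deubiquitinase Usp15, with 419 on the tumor side and 360.0 on the control side (log2 ratio 0.22), and the SMAD anchor Zfyve9, with 188 on the tumor side and 166 on the control side (log2 ratio 0.18).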

How the data were processed

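RNA of DRGs was hybridized to GeneChip Rat Genome 230 2.0 arrays, 1 per side, from 100 ng of total RNA. The authors computed MAS 5.0 signal intensity values at default settings, and these deposited values, on a linear scale, were used as they are, so background correction and probe summary are the authors'. How the arrays were scaled was not found in the labels or methods, and the tumor-side array was slightly brighter (trimmed mean 287 on the tumor side and 271 on the control side, 2% left out at either end). No detection calls were used. Of 31042 probe sets beside 57 control probe sets, 20826 have 1 gene symbol, and probe sets with several symbols were left out. All 67 members matched RefSeq (GRCr8) by gene identifier with the same symbol.

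For each probe set the log2 of the tumor-side signal over the control-side signal was taken, with no pseudocount. No test was made, since each group is 1 array. The technical spread is the pooled SD of these ratios within genes that have several probe sets above the signal rule. Named were members past a fold of 1.5, up to 3 with the largest and 3 with the smallest ratio above the rule in each role and family, members whose probe sets differ in sign by more than 0.3, and up to 3 genes of each pathway list with the largest ratios in size. Gdf11, Bmp6, Smad1, the members below the rule that are named, and Id1, Id3 and Axin2 were added after their values were seen, and so were the comparisons with the trp control probe sets. The members, roles and lists were chosen with earlier results of these data known. As alternatives, the arrays were quantile-normalized, centred on the median ratio or fitted by loess (span 0.3), 11.1 (the signal at percentile 20) was added before taking logs, the signal filter was dropped, raised to percentile 75 or applied to both arrays, probe sets with the suffixes for cross-hybridisation were removed, ratios were averaged over the probe sets of each gene, and folds of 1.5 and 3 were counted. The calculation of ratios and counts was checked on simulated data. The tools were numpy 2.4.6, pandas 2.3.3, matplotlib 3.10.9 and statsmodels 0.14.6 in Python 3.11.15. The number of arrays limits the precision.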

Additional observations from a re-analysis of the deposited data

How the results depend on the processing

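The count of members above the rule past a fold of 2 was 0 in either direction and was 0 too after quantile normalization, median centring and loess, with the pseudocount, with either stricter filter and without cross-hybridising probe sets. It became 2 higher and 5 lower without a signal filter, 1 higher and 1 lower at a fold of 1.5, and 1 lower when ratios were averaged over a gene's probe sets, where that member was Tgfbr1 (log2 ratio -1.48) through a dim second probe set. The median log2 ratio of all members, 0.043, was -0.033 after quantile normalization, -0.041 after centring and -0.045 after loess. In the same order that of ligands was -0.019, -0.019 and -0.019, and that of receptors -0.057, -0.056 and -0.058, while that of SMADs was 0.022 after quantile normalization and 0.022 after loess. These settings took the median gene to about 0 as well, by their own construction, so the sign of the medians of all members, ligands and receptors depends on the scaling, and that of SMADs stayed above 0. Relative to the median gene, the differences ran from -0.044 to -0.027 for all members and from -0.13 to -0.049 for receptors over the alternatives. They ran from -0.058 to 0.11 for ligands and from -0.0051 to 0.041 for SMADs, which thus changed side. For the extracellular inhibitors they ran from 0.030 to 0.080, with only 3 genes left under the filter at percentile 75. Without a signal filter the median was 0.19 for ligands and -0.050 for receptors, a difference of 0.24, against 0.037 above the rule and -0.0085 when ratios were averaged over a gene's probe sets. Fzd2 had log2 ratios from 0.77 to 0.89 and Wnt7a from -0.51 to -0.99 under the alternatives that kept them, and with the pseudocount Wnt7a was under a fold of 1.5. The filter alternatives and the removal of cross-hybridising probe sets left the ratio of each named member they kept as it was, by construction, and centring shifted all by 1 amount. Averaging over a gene's probe sets changed 19 of 34 ratios, 9 of them by more than the technical spread, which holds no variation between arrays. No paired analysis was possible because there is only 1 array on either side, and no array can be left out for the same reason. Signal limits what can be seen, since 30 of 67 members lay below the rule.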

Other observations

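Gdf1, a ligand of the TGF-β superfamily, shares its probe sets with Cers1, a ceramide synthase, and was left out of the members because each carries both symbols. Its 2 probe sets had signals of 536 and 285 on the tumor side and 533 and 288 on the control side (log2 ratios 0.01 and -0.01), so neither differed by a fold of 1.5.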
